A study of Mus musculus with 22 samples.

Results

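Olig1 and Olig2 are neighbouring genes of mouse chromosome 16 that are present in 3 copies in the Ts66Yah mouse model of Down syndrome, and they were described in hippocampus (HIP) and in entorhinal cortex (EC) beside 7 oligodendrocyte lineage genes that lie outside the triplicated segment. The 9 genes (Olig1, Olig2, Sox10, Nkx2-2, Myrf, Pdgfra, Cspg4, Gpr17 and Enpp6) were taken by symbol from a count table of 55385 genes. The pair was selected on its difference between Ts66Yah and wild-type (wt) mice in these same libraries, where Olig1 and Olig2 had been noted as triplicated genes that did not rise, and the other 7 were listed as precursor genes to set against them. The difference between genotypes is therefore given for all 9 genes as a description, without a p-value.

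RNA-Seq was performed on 11 male mice, 5 wt and 6 Ts66Yah, of 5-6 months on a B6C3B mixed background, and each mouse gave a HIP and an EC library, 22 in all. Ts66Yah mice carry a freely segregating minichromosome with the Mir155-to-telomere part of Mmu16, which is homologous to human chromosome 21, whereas the centromeric Mmu17 part of the parental Ts65Dn minichromosome was removed with CRISPR/Cas9. The controls were their wt littermates, which carry no minichromosome. The trisomic animals descend from a single founder that was mosaic, so that the model rests on 1 line.

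Oligodendrocytes make the myelin of the central nervous system and arise from dividing precursor cells (OPCs) that persist in the adult brain. OLIG1 and OLIG2 are basic helix-loop-helix transcription factors of the lineage; OLIG2 specifies precursors, and OLIG1 is needed for their maturation. SOX10 and NKX2-2 act with them, PDGFRA receives the growth signal PDGF-A, and MYRF turns on myelin genes once a cell leaves the cycle.

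The pair lies head to tail on the plus strand in GRCm38, with Olig2 at chr16:91225457-91228677 and Olig1 at chr16:91269772-91271933, inside the triplicated segment. The segment is counted here from base 84714140, the annotated start of Mir155, and so holds 135 annotated protein-coding genes. The junction sequenced in the paper lies upstream of that base. Promoter windows of RefSeq (GRCm38.p6, 250 bases before to 50 after the start) existed for 5 of the 9 genes in the table used, namely Olig2, Nkx2-2, Pdgfra, Cspg4 and Enpp6. The 4 of these whose gene passed the test between regions in both genotypes are shown, because Olig2, Nkx2-2 and Enpp6 were lower in the EC and Pdgfra was higher. Capitals mark CANNTG, the E-box that basic helix-loop-helix factors can bind, which reads the same on both strands; other motifs were not searched. The windows are chr16:91225300-91225599 (plus strand) for Olig2, chr2:147186353-147186652 (minus) for Nkx2-2, chr8:46986637-46986936 (plus) for Enpp6 and chr5:75152001-75152300 (plus) for Pdgfra.
Olig2: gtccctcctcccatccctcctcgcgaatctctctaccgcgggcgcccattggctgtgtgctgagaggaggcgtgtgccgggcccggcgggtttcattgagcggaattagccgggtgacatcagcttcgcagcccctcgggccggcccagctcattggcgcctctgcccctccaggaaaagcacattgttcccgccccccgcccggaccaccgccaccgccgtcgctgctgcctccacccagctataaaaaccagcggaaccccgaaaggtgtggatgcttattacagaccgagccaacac
Nkx2-2: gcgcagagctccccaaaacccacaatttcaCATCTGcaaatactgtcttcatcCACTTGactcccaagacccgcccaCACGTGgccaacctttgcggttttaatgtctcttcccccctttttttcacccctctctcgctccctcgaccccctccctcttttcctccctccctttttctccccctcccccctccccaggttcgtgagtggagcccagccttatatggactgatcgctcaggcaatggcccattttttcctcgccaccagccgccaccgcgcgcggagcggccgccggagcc
Enpp6: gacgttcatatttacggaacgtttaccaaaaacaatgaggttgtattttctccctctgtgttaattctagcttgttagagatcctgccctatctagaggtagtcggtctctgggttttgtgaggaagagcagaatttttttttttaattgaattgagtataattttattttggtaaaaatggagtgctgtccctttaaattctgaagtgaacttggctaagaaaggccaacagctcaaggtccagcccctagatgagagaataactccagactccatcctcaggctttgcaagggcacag
Pdgfra: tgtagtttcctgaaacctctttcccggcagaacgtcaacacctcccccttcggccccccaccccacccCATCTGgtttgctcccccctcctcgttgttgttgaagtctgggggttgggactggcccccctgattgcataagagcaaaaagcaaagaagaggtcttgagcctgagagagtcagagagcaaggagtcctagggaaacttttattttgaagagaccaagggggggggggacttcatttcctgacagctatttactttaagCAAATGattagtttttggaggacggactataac
Nkx2-2 held 3 matches, Pdgfra held 2, and Olig2 and Enpp6 held 0. The Nkx2-2 window lies inside the annotated span of the gene (chr2:147177546-147194243). It is thus the window of an internal start and not of the annotated 5' end. The starts used for the Olig2 and Pdgfra windows also differ from the annotated ones. That of Olig2 lies downstream of its annotated start, inside the gene, and that of Pdgfra lies upstream. Of all 32851 windows in that table, 72.3% held at least 1 match. The Olig2 window had 25 CG dinucleotides and a GC content of 65.0%, against medians of 7 and 52.7% over all windows, and that of Enpp6 had 4 and 40.3%. The presence or absence of these letters is a description of the windows.

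Library totals ranged from 25.9 to 50.1 M counts with a median of 34.7 M, and the lowest count of any of the 9 genes in any library was 11, for Nkx2-2. All 9 genes passed the filter on low counts in every comparison. Of the 10 markers on each list for neurons, astrocytes and microglia, 10 had counts in every library of every group. Choroid plexus markers differed most between libraries of the HIP, with summed levels from 118 to 3454 CPM (counts scaled to the library total in M) in wt and from 808 to 2972 CPM in Ts66Yah, against 11.9 to 45.9 CPM in the EC of both genotypes. Markers of mature oligodendrocytes summed to 8519 to 12740 CPM in wt HIP and 8837 to 11433 CPM in Ts66Yah HIP. In the EC they summed to 1696 to 4144 CPM in wt, with the highest value in replicate 2, and to 2011 to 3454 CPM in Ts66Yah.

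Per kilobase of exon, Olig1 had the highest level of the 9 genes in all 4 groups, at 34.4 ± 7.13 in wt HIP and 18.0 ± 5.73 in wt EC (mean ± SD, CPM per kb, n = 5 each). No library of the next gene reached the lowest Olig1 library in any group. In wt HIP the order went on with Sox10 (16.8 ± 2.91), Myrf (11.3 ± 1.37), Gpr17 (10.3 ± 1.30) and Olig2 (9.33 ± 1.24), neighbours whose libraries overlapped, then Pdgfra (6.33 ± 0.419), Enpp6 (2.29 ± 0.452), Cspg4 (1.97 ± 0.197) and Nkx2-2 (0.871 ± 0.273). Enpp6 and Cspg4 also overlapped. In wt EC, Gpr17 (9.57 ± 1.89) and Pdgfra (8.42 ± 0.978), whose libraries overlapped, stood after Olig1, and Myrf came after Sox10 and Olig2 at 2.26 ± 0.999 CPM per kb.

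The first comparison asked whether the extra copy of the segment was reflected in the RNA of Olig1 and Olig2. In the HIP the pair lay near the wt level: Olig1 was 0.982-fold and Olig2 0.916-fold of wt in Ts66Yah mice, whereas the median log2 fold change of segment genes of at least 10 CPM was 0.58, close to the 0.585 of a 1.5-fold gene dosage. In the EC the pair was 1.36- and 1.24-fold of wt, with log2 fold changes of 0.45 (SE 0.19) and 0.31 (SE 0.12). The description of the pair as genes that did not rise is closer to the HIP estimates than to those of the EC. As the pair was chosen with this contrast in view, these estimates carry no test. These are levels in whole tissue, in which fewer cells of a type and less RNA per cell cannot be told apart.

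Olig1 measured 68.6, 51.0, 88.6, 77.0 and 87.1 CPM in wt HIP replicates 1 to 5. In Ts66Yah HIP the lowest library was at 62.8, the median at 73.2 and the highest at 83.1 CPM, with replicates 1 to 6 at 83.1, 69.1, 79.3, 62.8, 77.3 and 64.9 CPM. The Ts66Yah libraries fell wholly inside the wt range, 3 of 6 above the wt mean and 3 below, and 6 of 6 stayed under 1.5 times that mean (112 CPM). The fitted difference was a log2 fold change of -0.03 (SE 0.12).

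In the EC, Olig1 measured 33.1, 34.5, 41.3, 26.5 and 58.9 CPM in wt replicates 1 to 5 and 39.1, 46.3, 48.7, 51.4, 66.7 and 66.6 CPM in Ts66Yah replicates 1 to 6. All 6 Ts66Yah libraries were above the wt mean of 38.9 CPM, but only 2 were above every wt library, since wt replicate 5 was high. The log2 fold change was 0.45 (SE 0.19), and leaving out wt replicate 4 gave 0.35, whereas leaving out wt replicate 5 gave 0.64.

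Olig2 measured 21.9, 20.9, 28.9, 22.4 and 23.8 CPM in wt HIP and 22.6, 21.1, 23.6, 22.3, 19.9 and 19.7 CPM in Ts66Yah HIP. Every Ts66Yah library was below the wt mean of 23.6 CPM, 2 of them below every wt library, and the log2 fold change was -0.13 (SE 0.08). In the EC it measured 10.4, 12.7, 13.8, 9.45 and 14.1 CPM in wt and 12.8, 12.5, 15.3, 17.4, 15.8 and 16.4 CPM in Ts66Yah. There all 6 Ts66Yah libraries exceeded the wt mean of 12.1 CPM, 4 of them every wt library, and the log2 fold change was 0.31 (SE 0.12). None reached 1.5 times the wt mean in either region.

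**Figure D1:**
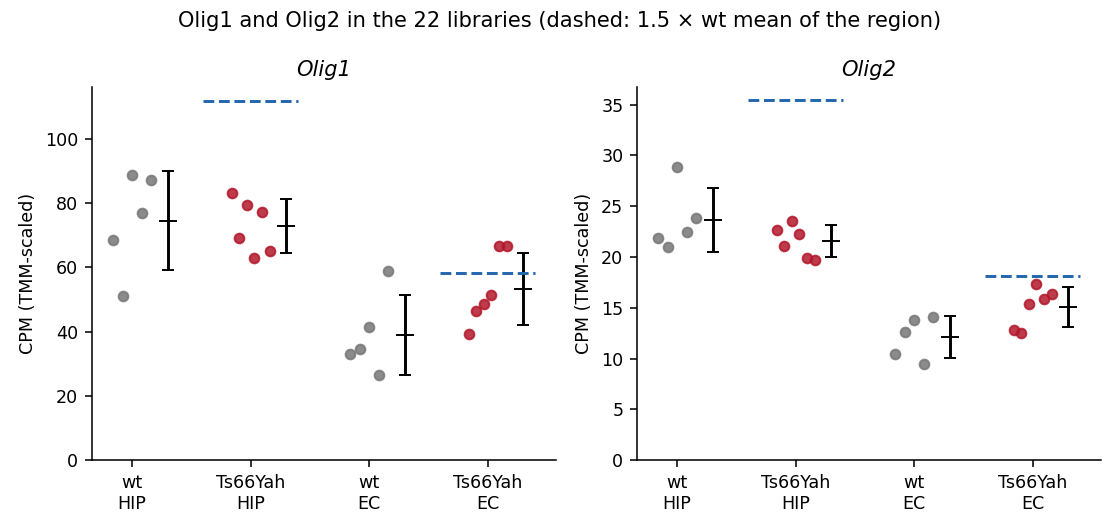
Level of Olig1 (left) and Olig2 (right) in CPM in each of the 22 libraries. Grey points are wt (n = 5 a region) and red points Ts66Yah (n = 6 a region), black bars are the mean ± SD, and the dashed line is 1.5 times the wt mean. In the HIP every Ts66Yah point lies under the line and among or below the wt points, and in the EC the Olig1 points of 2 Ts66Yah libraries lie above it.

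The genes nearest to the pair were read in the same libraries. The 3 nearest protein-coding genes tested in both regions on the centromeric side were Synj1, which encodes a synaptic lipid phosphatase, Paxbp1 and 4932438H23Rik. On the telomeric side they were Ifnar2, Il10rb and Ifnar1, which encode chains of the interferon and interleukin-10 family receptors. In the HIP these 6 genes were 1.51- to 1.72-fold of wt, with Synj1 at 550 ± 25.5 CPM (SD, n = 5) in wt and 882 ± 61.5 CPM (SD, n = 6) in Ts66Yah. In the EC they were 1.41-fold (Il10rb) to 1.63-fold (4932438H23Rik). The midpoints of Synj1 and Ifnar1 lie 0.275 and 0.248 Mb from the middle of the pair. Not every gene nearby had such a value in the HIP. Cfap298, the next protein-coding gene past Synj1 at 0.318 Mb, was 1.02-fold (log2 0.02, SE 0.22) there and 1.59-fold (0.67, SE 0.30) in the EC. The processed transcript A930006K02Rik, at 0.508 CPM in the HIP and 0.219 Mb from the pair, was 1.01-fold (SE 0.35 on the log2 scale). These neighbours were named after their values were seen.

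Among the 59 segment genes of at least 10 CPM in the HIP, Olig2 and Olig1 had the lowest log2 fold changes and were the only ones below 0 (of all 101 tested segment genes, 6 were below 0). The next were N6amt1 (0.17, SE 0.10), a methyltransferase gene, Pcp4 (0.26, SE 0.14), which encodes a calmodulin-binding peptide, and Scaf4 (0.36, SE 0.08). The interquartile range of the other genes was 0.51 to 0.64. In the EC, Olig2 had rank 3 from the lowest of 55, between N6amt1 (0.21, SE 0.10) and Scaf4 (0.32, SE 0.10), and Olig1 had rank 7, after Son (0.38, SE 0.08) and Grik1 (0.41, SE 0.11) and before Ets2 (0.46, SE 0.06), Gabpa (0.46, SE 0.09) and Sod1 (0.46, SE 0.10). Of all 93 tested segment genes in the EC, 3 were below 0, and 0 of the 55 of at least 10 CPM were. Segment genes under that level, which the ranks leave out, thus include some without a rise in each region. These ranks rest on the values that the pair was chosen by and carry no test.

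**Figure D2:**
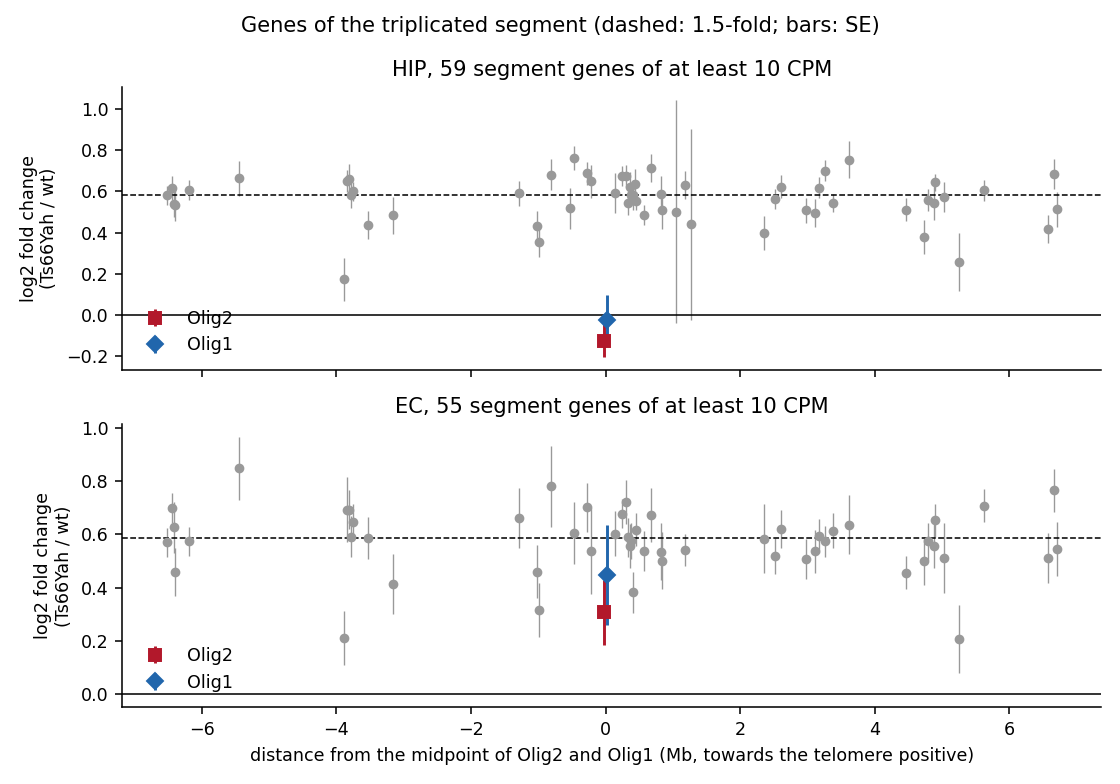
Log2 fold change (Ts66Yah / wt, bars are SE) of segment genes of at least 10 CPM in the HIP (top, 59 genes) and the EC (bottom, 55 genes) against their distance in Mb from the midpoint of Olig2 and Olig1. The dashed line marks 1.5-fold; in the HIP the pair sits at -0.13 and -0.03, below all other genes plotted, and in the EC at 0.31 and 0.45, near the lower part of the others.

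The 7 genes outside the segment are described by genotype next, with values alone, starting with the transcription factors. Sox10 was at 51.2 ± 8.88 CPM in the 5 wt HIP libraries and at 44.6 ± 7.36 CPM in the 6 of Ts66Yah (mean ± SD, as in the values that follow), and at 19.1 ± 3.66 and 16.5 ± 2.97 CPM in the EC. Its log2 fold changes were -0.19 (SE 0.12) and -0.22 (SE 0.15), and the genotypes overlapped in both regions. Nkx2-2, a homeodomain factor counted at 11 to 136 reads a library, had the estimate farthest from 0 among the 9 genes in the HIP. It ranged from 1.62 to 3.53 CPM in wt HIP and from 1.30 to 2.08 CPM in Ts66Yah HIP. Its fitted log2 difference was -0.60 (SE 0.21) there and -0.21 (SE 0.34) in the EC. Within the HIP, 3 of the 6 Ts66Yah libraries were below every wt library.

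Myrf was at 96.6 ± 11.7 and 96.2 ± 13.0 CPM in wt and Ts66Yah HIP, and at 19.3 ± 8.56 and 19.8 ± 1.11 CPM in the EC. Its log2 fold changes were 0.00 (SE 0.09) and 0.02 (SE 0.21). The wt EC libraries spread from 12.9 to 32.7 CPM, and the Ts66Yah EC libraries lay between 18.2 and 21.1 CPM. Enpp6, which encodes a choline phosphodiesterase of newly forming oligodendrocytes, was at 14.7 ± 2.90 and 11.8 ± 2.83 CPM in the HIP, and its fitted log2 difference there was -0.31 (SE 0.16). Wt HIP replicate 1 stood at 19.8 CPM, apart from 13.0 to 13.9 CPM in the other wt libraries, and without it the estimate was -0.17.

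The precursor surface genes had estimates near 0 in both regions. Pdgfra was at 57.8 to 69.7 CPM in wt HIP, at 65.6 ± 9.05 CPM in Ts66Yah HIP, and at 84.4 ± 9.80 and 88.6 ± 9.46 CPM in the EC, with log2 fold changes of 0.05 (SE 0.09) and 0.06 (SE 0.09). Cspg4, the gene of the NG2 proteoglycan that marks precursors and pericytes, had -0.08 (SE 0.08) and 0.01 (SE 0.09). Gpr17, a receptor of committed precursors, had -0.08 (SE 0.10) and 0.05 (SE 0.13). Gpr17 shares 188 exon bases with Lims2 on the other strand, so that reads of the pair cannot be told apart if counting ignored strand. The overlap of Olig1 with Gm15966 is small in reads, 40 against 47138 over all libraries.

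edgeR's quasi-likelihood test called 0 of the 9 genes in each region at an adjusted p under 0.05, while 0.591% and 0.283% of all tested genes were called. At an unadjusted p under 0.05 the numbers were 1 of 9 (HIP) and 2 of 9 (EC), against 11.9% and 6.25% of all tested genes. DESeq2 and limma voom also called 0. As the genes were chosen with this contrast in view, nothing is read from these counts.

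**Figure D3:**
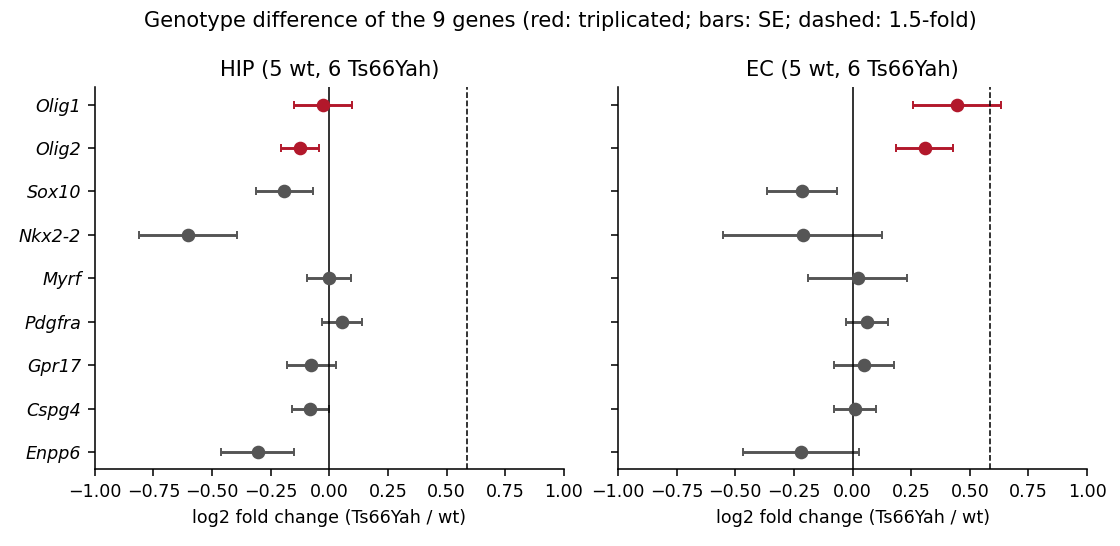
Log2 fold change (Ts66Yah / wt) of each of the 9 genes in the HIP (left) and the EC (right), with SE bars, from 5 wt and 6 Ts66Yah libraries a region. Red marks the triplicated pair and the dashed line 1.5-fold; the pair is at -0.03 and -0.13 in the HIP and at 0.45 and 0.31 in the EC, and Nkx2-2 is lowest in the HIP at -0.60.

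Each library was then described by the pair relative to the mean of the 7 other genes, all as log2 ratios to the wt mean of the region. In the HIP, Olig1 relative to the 7 genes averaged -0.01 ± 0.25 over 5 wt libraries and 0.15 ± 0.17 over 6 Ts66Yah libraries (mean ± SD), and Olig2 was 0.01 ± 0.14 and 0.06 ± 0.11. The shift between genotypes was 0.16 for Olig1 and 0.05 for Olig2, or 1.12- and 1.04-fold. The 7 genes themselves averaged -0.02 ± 0.13 in wt HIP and -0.19 ± 0.13 in Ts66Yah HIP, where 5 of 6 libraries were below 0. The log2 ratio of Olig1 alone averaged -0.03 in wt and -0.04 in Ts66Yah, and that of Olig2 -0.01 and -0.13. The shift thus goes with the lower mean of the 7 genes and not with a rise of the pair. Each gene counts equally in that mean, and Nkx2-2 (-0.60) and Enpp6 (-0.31) had the lowest fitted differences of the 7 in the HIP.

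In the EC, Olig1 relative to the 7 genes was 0.02 ± 0.39 in wt and 0.50 ± 0.26 in Ts66Yah, where the 6 libraries ran from 0.27 to 0.89. Olig2 was 0.05 ± 0.26 in wt and 0.38 ± 0.10 in Ts66Yah, from 0.24 to 0.55. The shifts were 0.48 and 0.33, or 1.40- and 1.26-fold, and the Ts66Yah values were above every wt value in 2 of 6 libraries for Olig1 and in 4 of 6 for Olig2. The 7 genes averaged -0.07 ± 0.26 in wt EC and -0.08 ± 0.13 in Ts66Yah EC.

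**Figure D4:**
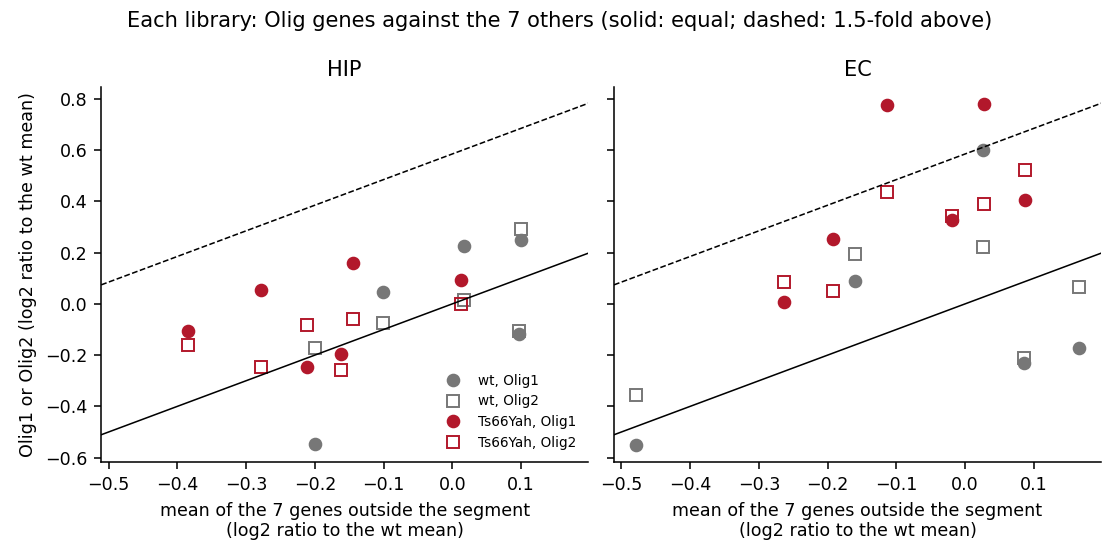
Each library's Olig1 (filled circles) and Olig2 (open squares) against the mean of the 7 genes outside the segment, both as log2 ratios to the wt mean of that region, for wt (grey) and Ts66Yah (red). The solid line marks equal change and the dashed line 1.5-fold above it; the Ts66Yah points of the EC all lie above the solid line, by 0.24 to 0.89, and those of the HIP lie on both sides of it, from -0.10 to 0.33.

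Whether the difference between genotypes differed between regions was fitted over all 22 libraries with 4 group means, without pairing the HIP and EC libraries of a mouse. The estimate (EC minus HIP, log2) was 0.48 (SE 0.24) for Olig1 and 0.44 (SE 0.15) for Olig2, and between -0.02 (SE 0.20, Sox10) and 0.39 (SE 0.41, Nkx2-2) for the 7 others. edgeR called 0 of the 9 genes, and 0% of the 19074 tested genes, at an adjusted p under 0.05. DESeq2 and limma voom called 0 as well. At an unadjusted p under 0.05 it was 1 of 9, against 2.03% of tested genes. As these estimates are built from the contrast that chose the pair, they are given as a description, and nothing is read from the counts.

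Values that moved with the pair from library to library stand beside this result. Olig1 and Olig2 are GC-rich transcripts, at 61.1% and 58.5%, above 97.5% and 92.7% of tested genes, whose median was 49.4%. The genes most like Olig1 in their deviations from the group means over 22 libraries were Fmc1, Abhd8, Mrpl12, Gm9824, Cox5b, Tlnrd1, Cox8a and Cox6a1 (Pearson r from 0.93 to 0.95 among 14918 genes), of which the Cox genes, Fmc1 and Mrpl12 encode proteins of mitochondria. Those most like Olig2 were Pcbp4, Nol3, Rusc2, Clip2, Rgma, Cnot3, Pcyox1l and Sncb (r from 0.85 to 0.89). None of these 16 was called by genotype, and none is a member of the lineage lists.

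All 8 genes most like Olig1 had estimates below 0 in Ts66Yah HIP, from -0.80 to -0.24 with a median of -0.38, and those in the EC ran from -0.06 to 0.20 with a median of 0.03. Olig1 lay 0.35 above that median in the HIP and 0.41 above it in the EC. For Olig2 the medians of its 8 genes were -0.20 and 0.01, and Olig2 lay 0.07 and 0.30 above them. Both sets of genes were picked from these same libraries for moving with the pair, so their members are not separate observations. Of all 18452 tested genes in the HIP, 9227 had estimates above 0, and in the EC 8570 of 17658. The distances include the contrast that chose the pair, and nothing is read from them. When a trend of each library on GC content was removed, an alternative chosen after seeing the data, Olig1 was at 0.10 (SE 0.09) in the HIP and 0.50 (SE 0.12) in the EC, and Olig2 at -0.05 (SE 0.07) and 0.36 (SE 0.09). Olig1 in the HIP thus changed sign, at 1.07-fold, still under 1.5-fold; the part of such library-wide trends in the result was not tested.

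Among the other 8 genes, Nkx2-2 (r = 0.78, rank 429 of 14918), Olig2 (r = 0.75, rank 559) and Sox10 (r = 0.61, rank 1265) were most like Olig1. Myrf (r = -0.10), Enpp6 (0.04) and Pdgfra (-0.37) had the lowest values. Sox10 stood at rank 322 for Olig2 (r = 0.69) and Olig1 at rank 129. The remaining closest pairs were Sox10 with Gpr17 (r = 0.68), Myrf with Enpp6 (0.68) and Pdgfra with Cspg4 (0.61). These values share libraries, depth and base composition, and are descriptions over 22 libraries.

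The labels give the animals numbers in a lower range (2 wt and 2 Ts66Yah) and a higher range (2 wt and 4 Ts66Yah), with wt replicate 1 in neither. Within the lower and the higher range the difference in mean log2 CPM of Olig1 in the HIP was 0.08 and -0.16, and that of Olig2 was -0.31 and -0.05. In the EC it was 0.82 and 0.22 for Olig1 and 0.28 and 0.32 for Olig2. These are parts of the contrast that chose the pair, over 2 to 4 mice a group, and nothing is read from their signs.

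The wider lineage was described by genotype in the same way. Over 5 lists with the 9 genes left out (OPC, newly formed oligodendrocyte, mature oligodendrocyte, transcription regulators of the lineage, and PDGF, FGF, Notch and related signals), edgeR called 0 of 106 tested genes in each region, against 0.591% and 0.283% of all genes. At an unadjusted p under 0.05 the counts were 9 (HIP) and 4 (EC) genes, 8.49% and 3.77% of the lists against 11.9% and 6.25% of all genes. DESeq2 called 1 gene, in the HIP, and limma voom called 0.

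The median log2 fold change in the HIP was 0.01 over the 19 OPC genes, -0.05 over the 16 newly formed oligodendrocyte genes, -0.07 over the 20 mature oligodendrocyte genes, -0.03 over the regulators and -0.04 over the signals. In the EC the same medians were 0.05, -0.04, 0.04, -0.06 and -0.05, and the median of all tested genes was 0.00 for the HIP and, as a fold, 0.997 for the EC. The gene that DESeq2 called was Fgfr3, an FGF receptor gene that astrocytes also express, which was at 112 ± 9.85 and 93.0 ± 6.32 CPM in wt and Ts66Yah HIP. Its fitted log2 difference was -0.26 (SE 0.06), which edgeR did not call (adjusted p 0.0921). It was named after its value was seen. Markers of pericytes, which share Cspg4 with precursors, had median log2 fold changes of -0.15 in the HIP and -0.24 in the EC with 0 of 10 called.

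The second comparison was between regions, which did not enter the choice of the genes. The libraries are those of the first comparison. In wt mice 6 of the 9 genes were lower in the EC (Olig1, Olig2, Sox10, Nkx2-2, Myrf and Enpp6) and 1 was higher (Pdgfra), where 24.3% of all tested genes were lower and 23.4% higher. In Ts66Yah mice the same 6 were lower and Pdgfra and Cspg4 were higher, where 27.5% of tested genes were lower and 26.4% higher. The 2 sets of mice are separate animals, and each set was tested by edgeR on its own. These tests did not pair the HIP and EC libraries of a mouse. The fit with the mouse as a block is an alternative given at the end.

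Olig1 was 1.89-fold lower in the EC of wt mice (-0.92 on the log2 scale, SE 0.19, edgeR adjusted p 0.00166) and 1.37-fold lower in that of Ts66Yah mice (-0.45, SE 0.13, adjusted p 0.00694). It was lower in 5 of 5 wt mice and in 5 of 6 Ts66Yah mice. Olig2 was 1.93-fold lower in wt (-0.95, SE 0.12, adjusted p 2.89e-05) and 1.43-fold lower in Ts66Yah (-0.52, SE 0.08, adjusted p 0.000125), in 5 of 5 and 6 of 6 mice. The Olig2 levels of the regions did not overlap in either genotype. The share of all tested genes without overlap between regions was not counted, so such separation is a description here and below.

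Sox10, which encodes a factor expressed throughout the lineage, was 2.65-fold lower in wt EC (adjusted p 6.73e-06) and 2.70-fold lower in Ts66Yah EC (adjusted p 3.13e-07). Nkx2-2 was 2.27-fold lower in wt (-1.18, SE 0.36, adjusted p 0.0166) and 1.74-fold lower in Ts66Yah (-0.80, SE 0.18, adjusted p 0.00159). In wt mice this call was lost without replicate 3 (-1.12, adjusted p 0.0681). Myrf had the largest difference, 4.93-fold lower in wt EC (-2.30, SE 0.24, adjusted p 5.34e-06) and 4.86-fold lower in Ts66Yah EC (-2.28, SE 0.08, adjusted p 9.06e-11). Enpp6 was 3.36-fold lower in wt (-1.75, SE 0.26, adjusted p 0.000107) and 3.17-fold lower in Ts66Yah (-1.66, SE 0.16, adjusted p 5.74e-07). For Sox10, Myrf and Enpp6 every EC library was below every HIP library of the same genotype, again without a share of all genes to set beside it.

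Pdgfra was 1.35-fold higher in the EC of both genotypes (log2 0.43, SE 0.09, edgeR adjusted p 0.00112 in wt and 0.000754 in Ts66Yah) and higher in 5 of 5 and 6 of 6 mice. Cspg4 was 1.18-fold higher in Ts66Yah EC (0.24, SE 0.08, adjusted p 0.0238), and this call was lost without replicate 5 (0.20, adjusted p 0.0916). In wt its value was 0.16 (SE 0.08, adjusted p 0.139). Gpr17 did not pass in either genotype, at -0.09 (SE 0.13, adjusted p 0.598) in wt and 0.03 (SE 0.11, adjusted p 0.819) in Ts66Yah.

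**Figure D5:**
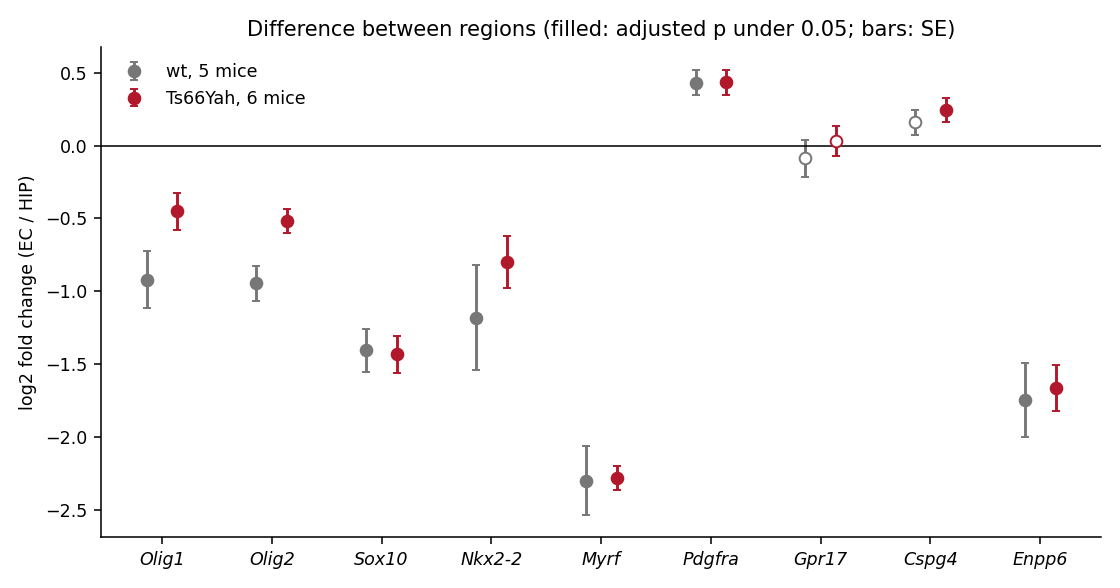
Log2 fold change between regions (EC / HIP) of each of the 9 genes in wt (grey, 5 mice) and Ts66Yah (red, 6 mice), with SE bars and filled points for an adjusted p under 0.05. Myrf is lowest at -2.30 and -2.28, Olig1 and Olig2 lie at -0.92 and -0.95 in wt and at -0.45 and -0.52 in Ts66Yah, and Pdgfra is higher at 0.43 in both.

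The lineage lists gave the setting of these values, and their counts are to be read against the shares of all tested genes given above (24.3% lower and 23.4% higher in wt EC, 27.5% and 26.4% in Ts66Yah EC). Of the 20 mature oligodendrocyte genes, 19 were lower in wt EC and 20 in Ts66Yah EC, and 0 were higher, with median log2 fold changes of -2.14 and -1.97, where the median of all tested genes was 0.01 in both genotypes. The summed level was highest in wt EC replicate 2, and without that mouse Myrf was at -2.58 and Sox10 at -1.52 in wt. The largest were Hapln2 (-2.86 in wt), which encodes a link protein of nodes of Ranvier, Opalin (-2.45), Mobp (-2.30) and Anln (-2.23), with adjusted p-values from 2.32e-06 to 3.55e-05 in edgeR. Mbp, which encodes myelin basic protein and is added here as a familiar gene chosen after its value was seen, was at 4140 ± 824 CPM in wt HIP and 1022 ± 393 CPM in wt EC (mean ± SD, n = 5 each).

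Of the 16 newly formed oligodendrocyte genes, 11 were lower and 2 higher in wt EC, and 10 and 1 in Ts66Yah EC. Nkx6-2 (-2.77), Bcas1 (-2.16) and 9630013A20Rik (-1.86) were lower in wt EC, and Tmem163 (2.06), a zinc transporter gene, was higher. Of the 19 OPC genes, 8 were higher and 3 lower in wt EC, and 9 higher and 2 lower in Ts66Yah EC, with medians of 0.15 and 0.25, where 23.4% and 26.4% of all genes were higher and 24.3% and 27.5% lower. The largest differences in wt were those of Lrrtm3 (1.82), which neurons also express, Sapcd2 (-0.79), Cspg5 (0.78) and Lhfpl3 (0.64). Vcan, the versican gene, was lower in both genotypes (-0.50 and -0.59) and was named after its value was seen.

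Of the 23 tested transcription regulators of the lineage, 3 were higher and 9 lower in wt EC, and 3 and 10 in Ts66Yah EC, against 23.4% and 24.3% of all genes in wt and 26.4% and 27.5% in Ts66Yah. Chd7 (-1.54), a chromatin remodeller gene, and Zeb2 (-1.12) were lower in wt EC, and Hes5 (1.30) and Id2 (1.21), which encode inhibitors of basic helix-loop-helix factors, were higher. Olig3 had 0 counts in all libraries. Of the 28 signals, 6 were higher and 11 lower in wt EC, and 10 and 10 in Ts66Yah EC, so that the count of higher genes in wt was near the 23.4% of all genes. Erbb3 (-1.78), Fgfr1 (-1.43), Cxcr4 (-1.40) and Fgfr2 (-1.18) had the largest differences in wt, and all are genes of receptors. Pdgfa, the ligand of PDGFRA, was at 0.18 (SE 0.08, edgeR adjusted p 0.0868) in wt and higher in the EC by 0.23 (SE 0.05, adjusted p 0.00116) in Ts66Yah, and was named after its value was seen.

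Other tissue markers moved with region as well. All tested choroid plexus markers were lower in the EC, 9 of 9 in wt and 10 of 10 in Ts66Yah. Of 10 striatal markers, 8 and 7 were higher and 0 lower. Among all tested genes, 24.3% were lower and 23.4% higher in wt, and 27.5% and 26.4% in Ts66Yah. Of 10 markers each in wt EC, 7 were higher and 1 lower for neurons and for meningeal fibroblasts. Microglia had 6 and 0, endothelium 5 and 0, pericytes 4 and 0, and astrocytes 4 and 2. In Ts66Yah EC neurons had 6 and 1, fibroblasts 2 and 1, and microglia 8 and 1. Endothelium had 5 and 0 there, pericytes 1 and 0, and astrocytes 4 and 3. Striatal markers summed to 202 to 425 CPM in wt EC, with a median of 235 CPM and the highest value in replicate 2, to 197 to 273 CPM in Ts66Yah EC and to 85.9 to 122 CPM in the HIP. Their part in the differences between regions was not tested.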

How the data were processed

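HIP and EC RNA of 11 mice was sequenced as 22 libraries. The authors aligned the reads with Hisat2 to GRCm38 and deposited raw counts per Ensembl gene from HTSeq-count, not normalized. Aligner versions, the strand setting and the handling of multiply mapped reads are not given in the sources used here. Per the labels the libraries were TruSeq Stranded mRNA, whereas the study's methods also name a ribosomal depletion kit. The other deposited tables hold the authors' own comparisons (DESeq2 and FCROS fold changes and p-values) and were not used.

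Groups came from the labels. Symbols, coordinates and exon lengths were matched by Ensembl identifier to GENCODE M21 (55144 of 55385 genes). Levels are CPM with TMM factors over all libraries. Differences were fitted in R 4.3.3 with edgeR 4.0.16 (TMM, filterByExpr, quasi-likelihood test, Benjamini-Hochberg adjustment over all tested genes, threshold 0.05), on the libraries of each comparison, and on all 22 for the difference of differences. DESeq2 1.42.0, limma 3.58.1 voom, other normalizations and filters, leaving out each replicate, and blocks were alternatives. A correction for GC content (a lowess trend on the GC of the longest transcript, removed from each library) was added after seeing the data. The fits were tested on simulated data. Library totals of 25.9 to 50.1 M counts set the precision, and no statement was found on separate extractions. P-values by genotype measure the spread between mice. The errors and p-values between regions, and those of the difference of differences, come from fits that did not pair the libraries of a mouse.

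The genes and lists were chosen with earlier results of these data known. Named genes are the 9 genes, the 3 nearest tested protein-coding genes on each side of the pair, the segment genes ranked just above it, the 8 genes most like Olig1 and Olig2 (Pearson r of deviations of log2 CPM from the group means, genes of at least 1 CPM), list genes called by genotype, and up to 4 called genes per lineage list with the largest difference between regions. Cfap298, A930006K02Rik, Mbp, Vcan, Pdgfa, Fgfr3 and Olig3 fall outside this rule and were named after their values were seen. HIP and EC libraries of 1 number come from the same mouse, and their deviations correlated at 0.204 to 0.623, above 0.1 in 11 of 11 mice.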

Additional observations from a re-analysis of the deposited data

Results flagged for a closer look

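Of 36 groups of values checked (9 genes in 4 groups), 1 had a library apart from the rest. Enpp6 in wt HIP replicate 1 stood at 19.8 CPM, where the other wt HIP libraries ran from 13.0 to 13.9 CPM, and the gap was 0.873 of the range of the group. Chance marks about 1 in 20 such groups. Without that library the difference between genotypes in the HIP was a log2 fold change of -0.17 in place of -0.31.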

How the results depend on the processing

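Of the 9 genes, 0 were called by genotype in the HIP, in the EC or in the difference between them under every alternative run, and the counts called between regions stayed within 1.5 times of 7 in wt and 8 in Ts66Yah. Of the lineage lists in the HIP, 0 genes were called in the chosen fit, 1 with DESeq2 (Fgfr3, log2 fold change -0.26, adjusted p 0.0112), 1 with the GC correction, which was chosen after seeing the data (Fgfr1, 0.17, edgeR adjusted p 0.0435), and 0 to 1 when each replicate was left out (Fgfr3 without wt replicate 2, -0.30, edgeR adjusted p 0.0260). The cause was not tested. Leaving out replicates turned the sign of estimates near 0 that did not pass the test: Gpr17 between regions in Ts66Yah ranged from -0.035 to 0.11, and the difference of differences ranged from -0.11 to 0.10 for Sox10, from -0.12 to 0.31 for Myrf, from -0.035 to 0.082 for Pdgfra and from -0.055 to 0.24 for Enpp6. By genotype, the sign turned in the EC for Nkx2-2 (-0.43 without wt replicate 4 to 0.15 without wt replicate 5), Myrf (-0.098 without wt replicate 5 to 0.29 without wt replicate 2), Enpp6 (-0.38 to 0.0090), Gpr17 (-0.033 to 0.15) and Cspg4 (-0.048 to 0.051), and in the HIP for Olig1 (-0.14 to 0.039), Myrf (-0.065 to 0.053) and Pdgfra (-0.013 to 0.11). Over all alternatives Olig1 by genotype ranged from -0.14 to 0.10 (HIP) and 0.35 to 0.64 (EC), and Olig2 from -0.17 to -0.047 (HIP) and 0.24 to 0.37 (EC).

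The mouse as a block changed no call of the 9 genes between regions (7 in wt and 8 in Ts66Yah with the replicate block). With it Olig1 was at -0.94 (SE 0.12, edgeR adjusted p 0.000109) in wt and -0.47 (SE 0.12, edgeR adjusted p 0.00672) in Ts66Yah. Olig2 was at -0.95 (SE 0.09, edgeR adjusted p 7.89e-06) in wt and -0.52 (SE 0.08, edgeR adjusted p 0.000274) in Ts66Yah. Across genotypes the libraries share only a number: their deviations correlated at 0.0225 to 0.112 in the HIP and 0.0104 to 0.274 in the EC, and 3 of 10 and 4 of 10 libraries correlated best with their own number. With that number as a replicate block, calls over all genes went from 109 to 61 (HIP) and 50 to 39 (EC), and those of the 9 genes stayed at 0, with Olig1 at 0.02 and 0.40. Nkx2-2, at 11 counts in the lowest library, had the widest errors.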
